A study of Mus musculus with 8 samples.

Results

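The genes described here make, import and sense amino acids, or belong to the stress response run by the transcription factor ATF4. They are 35 gene symbols, chosen by name for their function and found in 36 of the 56748 rows of the deposited count table. Earlier results of these data were known when they were chosen. The symbol Ddit3 has a second row, a short coding gene inside the first, with 0 counts in all 8 libraries, and the abundant row stands for it below. Each of the 35 passed the filter on low counts that left 13960 genes, with 89 to 7497 counts per library. Expression was measured by messenger RNA sequencing in primary cardiac fibroblasts of 1-day-old C57BL/6J mice, wild type in both groups. One group of 4 cultures was left untreated. The other 4 received recombinant TGF-β1, the cytokine that drives fibroblasts toward matrix-producing myofibroblasts, at 10 ng/mL for 48 h. Replicates came from different litters according to the series design, and all cultures grew in DMEM with fetal bovine serum. The treatment protocol also mentions the MRN inhibitor Mirin, which the labels of none of these 8 samples list as given. Cells were kept because they attached to the dish early, so other adherent heart cells can remain among them.

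ATF4 is made when the initiation factor eIF2 is phosphorylated by kinases that sense amino acid shortage, misfolded protein, haem lack or double-stranded RNA, and also downstream of the growth kinase complex mTORC1. Because this control acts largely on translation, the level of Atf4 mRNA is an incomplete guide to the protein. With C/EBP partners the factor binds composite elements near genes for amino acid transporters, for asparagine, serine and proline synthesis and for mitochondrial folate enzymes. These products matter to fibroblasts in particular, since collagen is rich in glycine and proline, and glycine is made from serine by the folate enzymes.

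The libraries held 14340740 to 17176898 counts on genes, and the 35 genes took 0.396% to 0.407% of the counts in untreated libraries and 0.440% to 0.464% in treated ones. All 10 fibroblast markers were well above the detection limit (mean 68.6 to 6974 CPM in untreated cells; CPM are counts scaled to library size). Untreated replicate 1 stood apart in ribosomal RNA, which took 0.0332% of its counts against 1.09% to 2.56% in the other 7 libraries. Cardiomyocyte markers were present and lower after treatment, with summed levels of 758 to 826 CPM in untreated and 419.7 to 500.2 CPM in treated libraries. Epicardial and mesothelial markers summed to 1130 to 1194 and 899 to 932 CPM, and mural cell markers to 298 to 309 and 452 to 509 CPM. Single mural markers were split, with 3 of 6 tested higher and 2 lower, beside 17.6% higher and 18.5% lower of all genes tested. Of the fibroblast markers 8 of 10 fell, beside 18.5% of all genes. Their sum still went from 17137 to 18911 CPM up to 19776 to 21362 CPM through the collagen genes Col1a1 and Col1a2. The 15 cell division genes summed to 503 to 547 CPM without and 115 to 122 CPM with TGF-β1. Each of these 5 sums differed between groups (exact two-sided permutation test, adjusted p = 0.0457 over 8 measures, the smallest p of 0.0286 that 4 against 4 libraries allow). The sums of endothelial (75.3 to 83.1 CPM) and macrophage markers (164 to 220.3 CPM) overlapped between groups. Single genes went both ways, with 2 of 8 endothelial markers higher and 2 lower, and 1 of 7 macrophage markers higher and 1 lower. These counts are small and near the shares of all genes tested (17.6% higher and 18.5% lower). None of the markers of these other cell types was at 0 in every library, and only the mural marker Kcnj8 was at 0 in some. What part these shifts have in the results below was not tested. In bulk RNA, fewer cells of a type and less RNA per cell cannot be told apart.

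Most of the amino acid and ATF4 genes were higher in TGF-β1-treated fibroblasts, by small amounts. Of the 35, 26 rose, 4 fell and 5 did not pass the test (edgeR quasi-likelihood test, adjusted p under 0.05). Among all genes tested the shares were 36.0% in either direction, 17.6% higher and 18.5% lower. Since the list was chosen with earlier results of these data known, this contrast describes the list and is no independent evidence. The median log2 fold change was 0.26 over the 35 genes and 0.01 over all genes tested. Trib3 rose most, to 1.64 times its untreated level, and Shmt1 fell most, to 0.509 times. Changes of at least 1.5-fold were called for 4 of the 35 (Trib3, Aldh1l2, Pycr1 and Shmt1), a share close to the 11.1% of all genes tested. The groups of libraries did not overlap for 28 of the 35, with 24 higher and 4 lower, whereas this held for 33.9% of all genes (16.5% higher and 17.4% lower). The spread between replicates was small, with a median coefficient of variation of 4.48% over the 35 genes in both groups.

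Scaling decided some of the smallest calls. With plain library totals in place of TMM factors, 20 of the 35 rose and 4 fell, while over all genes the split went from 2451 higher and 2579 lower to 1301 and 3673. The median of all genes moved by −0.08 on the log2 scale under that setting. The calls of Ddit3, Cebpg, Ddit4, Phgdh, Shmt2 and Mthfd1l were lost with library totals, and the other 24 calls held under all 19 alternatives tried.

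**Figure D1:**
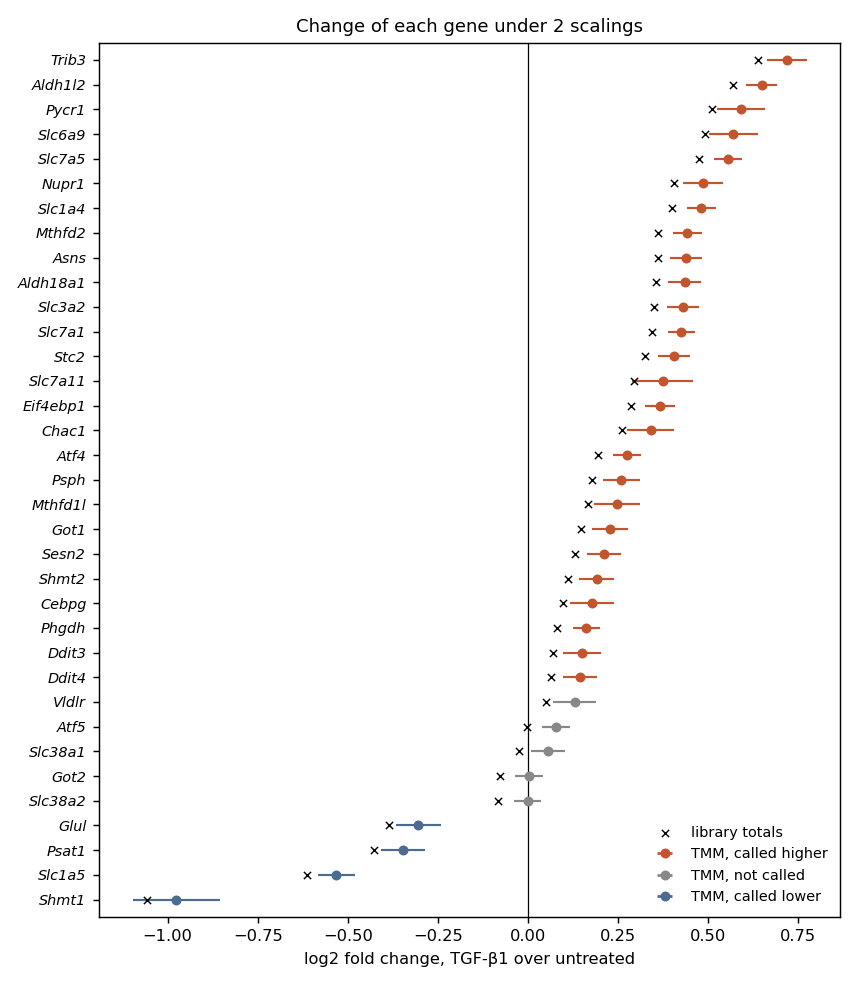
The horizontal axis gives the log2 fold change of each of the 35 genes, TGF-β1 over untreated, with circles and bars for the TMM-scaled estimate ± SE (4 libraries a group) and crosses for the estimate with library totals. The 26 genes called higher lie between 0.14 and 0.72, the 4 called lower are Glul, Psat1, Slc1a5 and Shmt1, and every cross lies to the left of its circle.

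In level per gene length, the 35 genes spanned a wide range. By the authors' FPKM (fragments scaled to gene length and to library depth), Atf5 was highest in untreated cells at 194.9 ± 2.41 (SD, n = 4), followed by the serine synthesis gene Phgdh at 157 ± 4.47 and Atf4 itself at 109.6 ± 2.88. The cystine transporter gene Slc7a11 was lowest at 0.906 ± 0.0405 FPKM, and Shmt1 was next at 3.58 ± 0.382. Neighbours in the order such as Ddit3 (44.5 ± 2.89 FPKM) and Ddit4 (42.3 ± 1.77), or Mthfd2 (22.1 ± 0.459) and Nupr1 (22.1 ± 1.504), did not differ beyond their spread. In the treated libraries Trib3 stood at 47.4 ± 2.40 FPKM, from 28.8 ± 2.41 in untreated ones, beside Ddit3 at 49.4 ± 3.31 and Ddit4 at 46.8 ± 1.74.

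**Figure D2:**
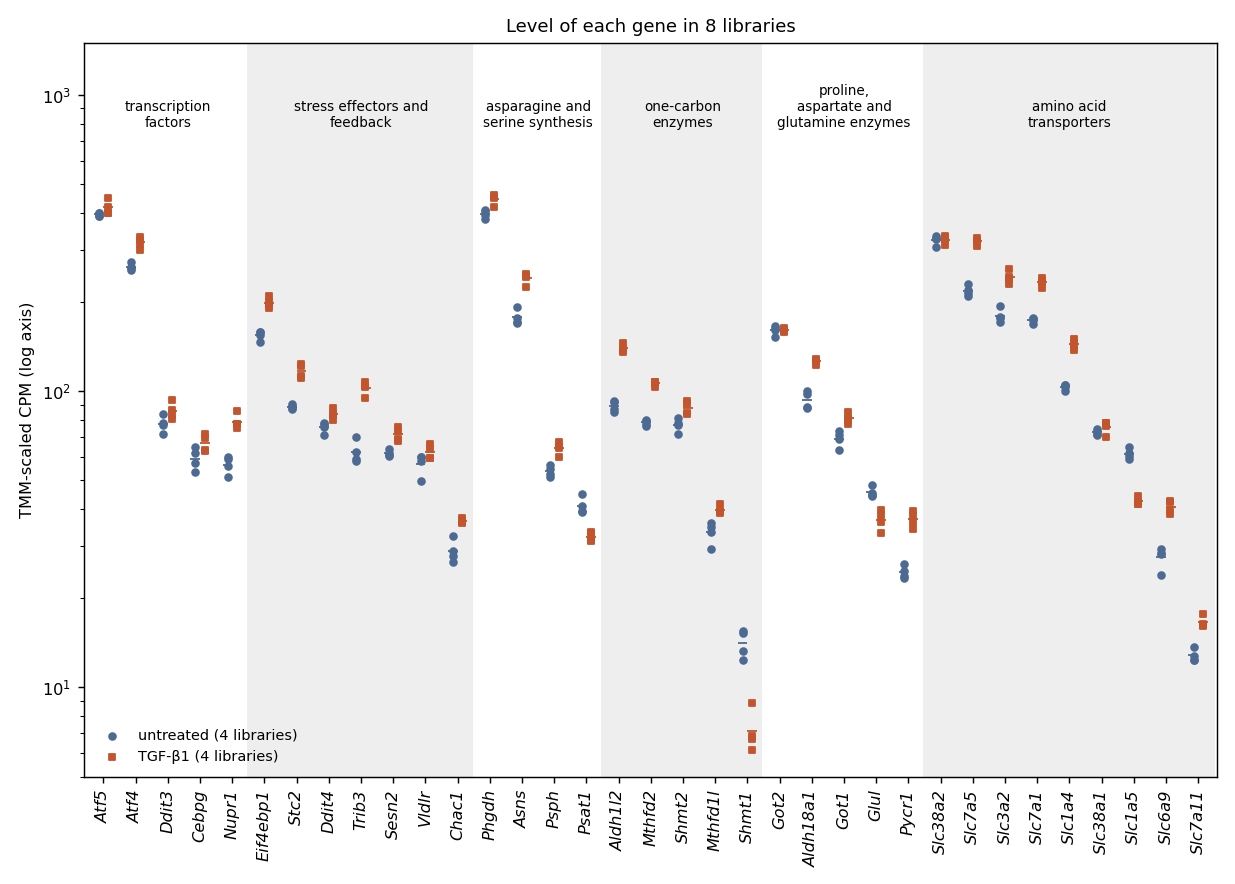
TMM-scaled CPM of each gene on a log axis, with 4 untreated libraries (circles) and 4 TGF-β1 libraries (squares) and short lines at the group means, grouped by role. CPM is not corrected for gene length, so columns compare groups within a gene. Squares lie wholly above circles for 24 genes and wholly below for Glul, Psat1, Slc1a5 and Shmt1.

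Short elements of the kind that ATF4 and its C/EBP partners bind were looked for near the starts of these genes. Whether such elements have a part in the changes was not tested. RefSeq promoter windows (build GRCm38.p6, 250 bases before to 50 after the start) were matched by symbol for 30 of the 35 genes; Aldh1l2, Eif4ebp1, Slc1a5, Slc38a1 and Slc7a5 had none. The motif TGATGNAA, searched on both strands, was in a window of 9 of the 30 genes, whereas 4.51% of all 27025 genes with windows had it, or 3.97% of the 32851 windows. The stricter form TGATGCAA, which is contained in the first, was found for 7 of the 30 against 1.03% of all genes. The palindromic cAMP element TGACGTCA was in none of the 30 and in 2.03% of all genes. Of the genes with the first motif, 8 were among the 23 called higher that had a window, none was among the 3 called lower, and 1 (Vldlr) was among the 4 not called. Part of the list was chosen because these genes are known ATF4 targets, so the count describes the list and is no independent evidence, and a match is not a shown site.

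The upstream stretches with a match are printed 5′ to 3′ on the strand of the gene, with the match in capitals (TTGCATCA is TGATGCAA read on the other strand). They are shown to let the elements of genes that rose be compared with each other and with Vldlr, which did not pass the test. Slc7a11, with 2 matches facing each other, lies at chr3:50443623-50443709 (minus strand), Pycr1 at chr11:120643814-120643881 (minus), Nupr1 at chr7:126625543-126625610 (minus) and Chac1 at chr2:119351019-119351086 (plus). Got1 lies at chr19:43524670-43524737 (minus), Asns at chr6:7693210-7693262 (minus) and Vldlr at chr19:27216790-27216857 (plus), all in GRCm38.p6.
Slc7a11: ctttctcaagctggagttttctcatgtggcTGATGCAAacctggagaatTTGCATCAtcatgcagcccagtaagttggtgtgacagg
Pycr1: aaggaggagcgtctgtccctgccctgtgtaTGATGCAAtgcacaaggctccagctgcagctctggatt
Nupr1: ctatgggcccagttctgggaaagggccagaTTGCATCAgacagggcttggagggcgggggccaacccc
Chac1: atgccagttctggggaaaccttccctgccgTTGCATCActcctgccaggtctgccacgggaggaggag
Got1: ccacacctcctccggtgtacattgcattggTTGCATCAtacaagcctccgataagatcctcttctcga
Asns: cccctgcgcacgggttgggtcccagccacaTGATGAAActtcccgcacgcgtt
Vldlr: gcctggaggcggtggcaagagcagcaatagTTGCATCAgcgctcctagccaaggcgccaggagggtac

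Asns carries the variant with A in place of the wildcard, 23 bases before the start, and the other 6 carry the stricter form. Slc1a4 and Trib3 had their matches across or after the start, which are not printed. The 2 matches of Slc7a11 begin 66 and 47 bases before the start. Those of Got1, Pycr1 and Nupr1 begin 102, 103 and 110 bases before it, and those of Chac1 and Vldlr 193 and 200 bases before it.

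Among the transcription factors of the response, 4 of 5 rose and none fell, beside 17.6% higher and 18.5% lower of all genes. Atf4 (ENSMUSG00000042406, GRCm39 chromosome 15, 80139385 to 80141742, plus strand) was at 256, 260.1, 273 and 262 CPM in the untreated libraries and at 300.5, 315, 331 and 325 CPM in the treated ones. Every treated library was above every untreated one, and Atf4 rose by 0.27 ± 0.04 on the log2 scale (± is SE beside log2 values; edgeR adjusted p = 5.59e-06). Nupr1, a small stress-induced chromatin protein, rose from 56.4 ± 3.90 to 79.0 ± 4.75 CPM (SD, n = 4 and 4), the most of the 5 (log2 fold change 0.48 ± 0.06, edgeR adjusted p = 2.80e-07). Its count carries some doubt. An antisense gene of GENCODE M39 covers 21.8% of its exonic bases, and the sources used here do not give whether reads were counted by strand. Got2, Aldh18a1, Shmt2, Slc3a2, Aldh1l2 and Slc38a1 share 12.9% to 19.6% of their exonic bases with antisense exons in the same way.

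Ddit3, which encodes the pro-apoptotic factor CHOP, was at 71.6, 83.8, 77.9 and 76.6 CPM without and 86.7, 93.5, 83.4 and 80.3 CPM with TGF-β1. The groups overlapped, and the rise of 0.15 ± 0.05 was near the threshold (edgeR adjusted p = 0.0327). It was lost with upper quartile factors, with library totals, with limma on FPKM and when any of 5 single libraries was left out, for example without untreated replicate 1 (edgeR adjusted p = 0.140). In GENCODE M39, 82.4% of the exonic bases of Ddit3 lie under exons of other genes, nearly all antisense, so its count is uncertain. Cebpg, a dimer partner of ATF4, overlapped too (53.3 to 64.5 against 62.6 to 71.9 CPM), with a log2 fold change of 0.18 ± 0.06 (edgeR adjusted p = 0.0259) and a call that did not survive library totals (edgeR adjusted p = 0.276), limma on FPKM or leaving out untreated replicate 2 or 3 or TGF-β1 replicate 2 or 4. Atf5, a close relative of ATF4 under similar translational control, did not pass the test. Its untreated libraries lay at 389 to 400.0 CPM and its treated ones at 398 to 449 CPM (log2 fold change 0.08, 95% interval −0.003 to 0.16, edgeR adjusted p = 0.130).

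Of the 7 effector and feedback genes of the stress response, 6 rose and none fell (all genes: 17.6% and 18.5%). Their median was 0.34 on the log2 scale. Trib3 (ENSMUSG00000032715, GRCm39 chromosome 2, 152179342 to 152185952, minus strand) encodes a pseudokinase that restrains ATF4 and AKT. Its level was 62.4, 58.8, 69.8 and 58.2 CPM in untreated and 94.9, 104, 107 and 103 CPM in treated libraries. The groups were well apart, and the log2 fold change of 0.72 ± 0.06 was the largest rise of the 35 genes (edgeR adjusted p = 5.03e-10). Stc2, a secreted glycoprotein induced by stress, rose by 0.40 ± 0.04, with 87.3 to 90.2 CPM in untreated and 111 to 123 CPM in treated libraries (edgeR adjusted p = 1.04e-07). Eif4ebp1, the cap-binding inhibitor that mTORC1 switches off, rose from 154 ± 5.48 to 199 ± 7.87 CPM, or by 0.37 ± 0.04 (edgeR adjusted p = 1.92e-07).

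Chac1 degrades glutathione and is a sensitive marker of ATF4 activity. It was at 27.7, 28.9, 32.5 and 26.6 CPM without and 36.04, 36.7, 37.4 and 36.03 CPM with treatment. The rise was 0.34 ± 0.07 (edgeR adjusted p = 0.000265), with less spread among the treated libraries than among the untreated ones. Sesn2, a leucine sensor that holds mTORC1 back, rose by 0.21 ± 0.05 (60.6 to 64.0 against 68.0 to 75.5 CPM, edgeR adjusted p = 0.00142). Ddit4, another inhibitor of mTORC1, rose by 0.14 ± 0.05 (71.0 to 78.2 against 79.6 to 87.4 CPM, edgeR adjusted p = 0.0175), a call lost with library totals (edgeR adjusted p = 0.356), without untreated replicate 2 (0.0773) and without TGF-β1 replicate 3 (0.0705). Vldlr, a lipoprotein receptor gene, did not pass (49.7 to 59.9 against 59.5 to 66.4 CPM, log2 fold change 0.13, 95% interval 0.005 to 0.25, edgeR adjusted p = 0.0987). Its lowest value, 49.7 CPM, came from untreated replicate 1.

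In asparagine and serine synthesis, 3 genes rose and the remaining one, Psat1, fell (all genes: 17.6% higher and 18.5% lower). Asns (ENSMUSG00000029752, GRCm39 chromosome 6, 7675169 to 7693254, minus strand), the asparagine synthetase gene and a classic ATF4 target, was at 171, 177, 193 and 170.0 CPM in untreated and 225, 247, 242 and 248 CPM in treated libraries. The groups did not overlap, and it rose by 0.44 ± 0.04 (edgeR adjusted p = 5.09e-08). Serine is made from a glycolytic intermediate by PHGDH, PSAT1 and PSPH in turn, and their mRNAs did not change alike.

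Phgdh, for the entry enzyme, was at 405, 382, 408 and 394 CPM without and 419.5, 461, 451 and 447 CPM with TGF-β1. Its rise of 0.16 ± 0.04 (edgeR adjusted p = 0.00162) did not pass when library totals set the scale (edgeR adjusted p = 0.136). Psat1 (ENSMUSG00000024640, GRCm39 chromosome 19, 15882042 to 15924701, minus strand), for the transaminase of the middle step, was at 39.4, 41.1, 44.8 and 39.1 CPM without and 33.2, 31.5, 31.1 and 33.3 CPM with treatment. It fell by 0.35 on the log2 scale (SE 0.06, edgeR adjusted p = 9.03e-05), with every treated library below every untreated one. Psph, for the final phosphatase, rose by 0.26 ± 0.05 (51.1 to 56.4 against 60.2 to 67.2 CPM, edgeR adjusted p = 0.000373).

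Of the 5 one-carbon genes among the 35, the 4 for mitochondrial enzymes rose and the cytosolic Shmt1 fell (all genes: 17.6% higher and 18.5% lower). Other folate genes, some of them mitochondrial, are in a further list below and did not rise as a group. Serine hydroxymethyltransferases split serine into glycine and a folate-bound carbon. The mitochondrial enzymes MTHFD2, MTHFD1L and ALDH1L2 act in the steps that turn that carbon into formate or carbon dioxide. Aldh1l2 (ENSMUSG00000020256, GRCm39 chromosome 10, 83323314 to 83370004, minus strand) was at 87.1, 92.5, 84.9 and 91.8 CPM in untreated and at 139, 136, 138 and 145 CPM in treated libraries. It rose by 0.65 ± 0.04, with the smallest adjusted p of the 35 genes (edgeR adjusted p = 2.69e-11). Mthfd2 was at 76.4, 77.7, 80.0 and 79.4 CPM without and 107, 108, 103 and 108 CPM with TGF-β1, a rise of 0.44 ± 0.04 (edgeR adjusted p = 8.19e-09).

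Both genes had tight replicates and groups far apart. Mthfd1l rose by 0.25 ± 0.06 (29.4 to 35.9 against 38.6 to 41.6 CPM, edgeR adjusted p = 0.00414); library totals moved this just past the threshold (edgeR adjusted p = 0.0521). Shmt2, the mitochondrial hydroxymethyltransferase gene, rose by 0.19 ± 0.05 (71.5 to 81.5 against 84.0 to 92.8 CPM, edgeR adjusted p = 0.00379), a call lost with library totals (edgeR adjusted p = 0.0905).

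Shmt1 (ENSMUSG00000020534, GRCm39 chromosome 11, 60678930 to 60702544, minus strand), which encodes the cytosolic form that feeds thymidylate synthesis, went the other way. It was at 15.5, 12.4, 15.3 and 13.3 CPM in untreated libraries and at 6.84, 6.15, 6.69 and 8.89 CPM in treated ones. The log2 fold change was −0.98 ± 0.12 (edgeR adjusted p = 1.03e-06), the largest change of the 35 genes in either direction, from one of the lowest levels. In the same libraries all 15 cell division genes fell, with a median log2 fold change of −2.60. Cardiomyocyte markers fell in 10 of 12 cases, whereas 18.5% of all genes tested were called lower. Whether the shift in cell division genes or in cardiomyocyte markers has a part in the fall of Shmt1 was not tested.

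Genes of proline synthesis rose, while glutamine synthetase fell. Proline is built from glutamate by ALDH18A1, which makes the semialdehyde, and by PYCR1, which carries out the last reduction in mitochondria. Pycr1 (ENSMUSG00000025140, GRCm39 chromosome 11, 120526538 to 120534595, minus strand) was at 26.2, 23.4, 24.7 and 23.9 CPM in untreated and 38.2, 36.2, 39.3 and 34.2 CPM in treated libraries, a rise of 0.59 ± 0.07 (edgeR adjusted p = 1.92e-07). Aldh18a1 was at 87.9, 100.1, 97.7 and 88.7 CPM without and 129, 123, 127 and 128 CPM with TGF-β1, a rise of 0.44 ± 0.05 (edgeR adjusted p = 7.72e-08). For both genes the lowest treated library was above the highest untreated one.

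The aspartate transaminases differed in outcome. Got1, the cytosolic form, rose by 0.23 ± 0.05 (63.2 to 73.3 against 77.7 to 85.2 CPM, edgeR adjusted p = 0.000961). Got2, the mitochondrial form, had a log2 fold change of 0.002 (95% interval −0.08 to 0.08, edgeR adjusted p = 0.977), and its libraries overlapped at 152 to 166 and 159 to 164 CPM. Whether the 2 genes differ from each other was not tested. Glul, for glutamine synthetase, was at 44.7, 48.2, 44.2 and 45.2 CPM without and 38.3, 33.1, 36.2 and 39.8 CPM with treatment. It fell by 0.30 on the log2 scale (SE 0.06, edgeR adjusted p = 0.000419), with no overlap.

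Of the 9 amino acid transporter genes, 6 rose and 1 fell (all genes: 17.6% and 18.5%), with a median log2 fold change of 0.42. Slc7a5 (ENSMUSG00000040010, GRCm39 chromosome 8, 122607889 to 122634433, minus strand) encodes LAT1, which brings in leucine and other large neutral amino acids. It was at 214, 220.1, 229.7 and 209 CPM in untreated and 309, 325, 329.7 and 319 CPM in treated libraries, a rise of 0.55 ± 0.04 (edgeR adjusted p = 9.66e-11). Its partner Slc3a2, the heavy chain that carries LAT1 and the cystine transporter to the membrane, was at 171, 177, 193 and 178 CPM without and 239.7, 257, 243 and 229 CPM with TGF-β1, a rise of 0.43 ± 0.04 (edgeR adjusted p = 5.08e-08). Both chains were higher in every treated library than in any untreated one.

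Slc7a11, the cystine/glutamate exchanger that supplies glutathione synthesis, was at 12.8, 12.4, 13.7 and 12.4 CPM without and 16.4, 16.1, 16.2 and 17.7 CPM with treatment. It rose by 0.37 ± 0.08 (edgeR adjusted p = 0.00133) at a low level. Slc7a1, the cationic amino acid transporter for arginine and lysine, rose by 0.42 ± 0.04 (168 to 176 against 224 to 241 CPM, edgeR adjusted p = 4.96e-09). Slc6a9, the glycine transporter GLYT1, was at 24.0, 28.2, 29.4 and 28.3 CPM in untreated and 39.7, 42.7, 42.2 and 38.6 CPM in treated libraries. Its rise was 0.57 ± 0.07 (edgeR adjusted p = 4.82e-07), but antisense exons cover 33.9% of its exonic bases, which leaves the count in doubt.

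The related neutral amino acid exchangers Slc1a4 and Slc1a5 went in opposite directions. Slc1a4 (ASCT1, which carries serine, alanine and cysteine) was at 103, 105, 105 and 100.1 CPM without and 141, 146, 149.8 and 138 CPM with TGF-β1, a rise of 0.48 ± 0.04 (edgeR adjusted p = 2.08e-09). Slc1a5 (ENSMUSG00000001918, GRCm39 chromosome 7, 16515265 to 16532199, plus strand), which encodes the glutamine carrier ASCT2, was at 59.0, 60.6, 64.6 and 61.9 CPM without and 41.5, 41.6, 42.5 and 44.3 CPM with treatment. It fell by 0.53 on the log2 scale (SE 0.05, edgeR adjusted p = 2.01e-08), and the groups lay far apart.

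The sodium-coupled glutamine transporter genes did not pass the test. Slc38a2 (SNAT2), for which adaptive induction under amino acid shortage is well known, was at 307 to 334 CPM without and 311 to 333 CPM with TGF-β1 (log2 fold change −0.002, 95% interval −0.08 to 0.08, edgeR adjusted p = 0.981). Slc38a1 was at 71.0 to 74.3 and 69.96 to 78.0 CPM (log2 fold change 0.05, 95% interval −0.04 to 0.15, edgeR adjusted p = 0.388). These intervals hold under TMM scaling; with library totals the estimates of Atf5, Got2, Slc38a1 and Slc38a2 were −0.003, −0.08, −0.03 and −0.08, still without a call.

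Ratios of 2 genes within a library do not depend on the scaling, and 6 pairs of linked function are described. The pairs were chosen with the values known, and in the first 3 a gene that rose is set against a gene that fell, so no test is given. Slc1a4 over Slc1a5 was 1.75, 1.73, 1.62 and 1.62 in untreated and 3.40, 3.51, 3.52 and 3.12 in treated libraries, CPM over CPM. The mitochondrial over the cytosolic hydroxymethyltransferase gene, Shmt2 over Shmt1, went from 5.51 ± 0.789 to 12.6 ± 2.35 (SD, n = 4 and 4). Phgdh over Psat1 went from 9.70 ± 0.583 to 13.8 ± 0.931. The transporter heterodimer ratio Slc7a5 over Slc3a2 went from 1.21 ± 0.0391 to 1.33 ± 0.0605, a small shift with no overlap between groups.

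The libraries of both groups overlapped for Pycr1 over Aldh18a1 (0.263 ± 0.0270 untreated and 0.293 ± 0.0178 treated) and for Mthfd2 over Mthfd1l (2.36 ± 0.191 and 2.69 ± 0.136).

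**Figure D3:**
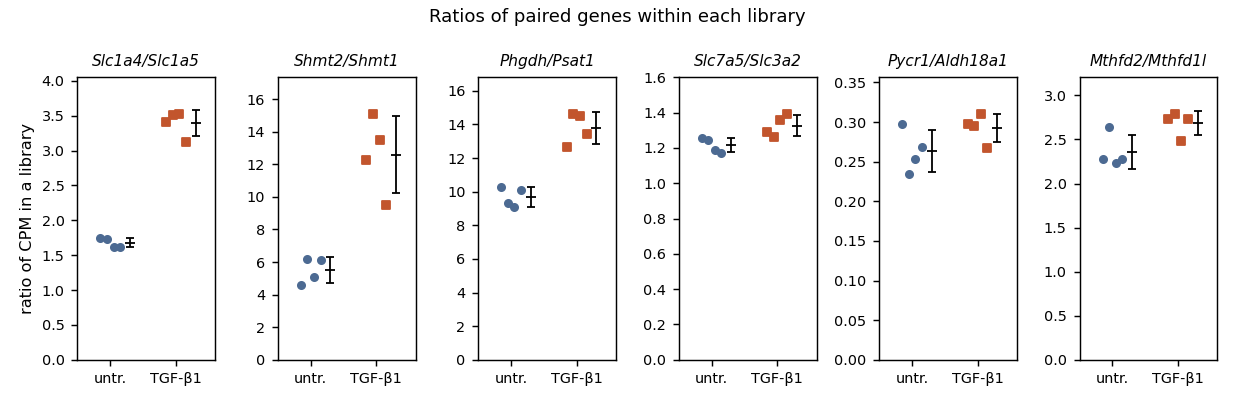
Each panel plots, on its own linear axis from 0, the ratio of the CPM of 2 genes in every untreated (circles) and TGF-β1 (squares) library, with the mean ± SD (n = 4) in black. Slc1a4/Slc1a5 rises from 1.68 to 3.39 on average and Shmt2/Shmt1 from 5.51 to 12.6, while the Pycr1/Aldh18a1 and Mthfd2/Mthfd1l points overlap.

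The wider pathway was read from 6 lists of other genes, 118 in all, of which 113 could be tested. Over these lists 42 rose and 17 fell, beside 17.6% higher and 18.5% lower among all genes tested. These lists too were chosen with earlier results of these data known. With library totals 31 rose and 28 fell, beside 1301 and 3673 of the 13960 genes. Among other stress genes linked to ATF4, 13 of 16 were called higher and 1 lower (11 and 2 with library totals; median log2 fold change 0.25). Ndrg1, a stress-responsive gene also induced by hypoxia, rose by 1.17 ± 0.05, and Cth, which makes cysteine from cystathionine, by 1.03 ± 0.11 (edgeR adjusted p = 4.29e-14 and 1.24e-07). Cebpb, a C/EBP partner of ATF4, fell by 0.45 on the log2 scale (SE 0.06, edgeR adjusted p = 1.19e-06), from 102 ± 6.31 to 74.8 ± 6.51 CPM (SD, n = 4 and 4).

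Upstream of ATF4, 9 of 16 genes for kinases, phosphatase subunits and eIF2B were called higher and 2 lower (5 and 2 with library totals). Eif2s1, which encodes the phosphorylated subunit of eIF2, rose by 0.27 ± 0.04 and Ppp1r15a (GADD34, which directs its dephosphorylation) by 0.32 ± 0.06. Eif2b3, a subunit of the exchange factor, rose by 0.52 ± 0.08 (edgeR adjusted p = 1.77e-05). In the list of mTORC1 and amino acid sensing genes 4 of 20 rose and 3 fell (3 and 6 with library totals), shares near the 17.6% higher and 18.5% lower of all genes. Rheb, the GTPase that activates mTORC1, rose by 0.36 ± 0.04, and the arginine sensor gene Castor1 by 0.44 ± 0.06. Sesn1, a relative of Sesn2, fell by 0.62 on the log2 scale (SE 0.08, edgeR adjusted p = 7.34e-07).

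Of 20 other folate and glycine enzyme genes, 4 rose and 3 fell (3 and 6 with library totals), again near the 17.6% higher and 18.5% lower of all genes. Gcsh, the carrier protein of the glycine cleavage system, rose by 0.57 ± 0.06 and Mtrr, which reactivates methionine synthase, by 0.34 ± 0.06.

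Other enzymes of proline, glutamate, branched-chain amino acids and the urea cycle had 7 of 18 tested genes called higher and 2 lower (5 and 3 with library totals). The shares of all genes tested were 17.6% and 18.5%. Odc1, which makes putrescine from ornithine, rose by 0.89 ± 0.04, Bcat1, the cytosolic branched-chain transaminase, by 1.09 ± 0.09, and P4ha1, which hydroxylates proline in collagen, by 0.45 ± 0.03. Of 23 other amino acid transporter genes tested, 5 rose and 6 fell (4 and 9 with library totals). All genes tested had 17.6% higher and 18.5% lower. Whether this list differs from the 9 transporters above was not tested. Slc7a3, a second cationic transporter, rose by 0.92 ± 0.07, and the taurine transporter Slc6a6 by 0.56 ± 0.04. Slc38a4, a neutral and cationic transporter, fell by 0.99 on the log2 scale (SE 0.08, edgeR adjusted p = 1.23e-09).

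**Figure D4:**
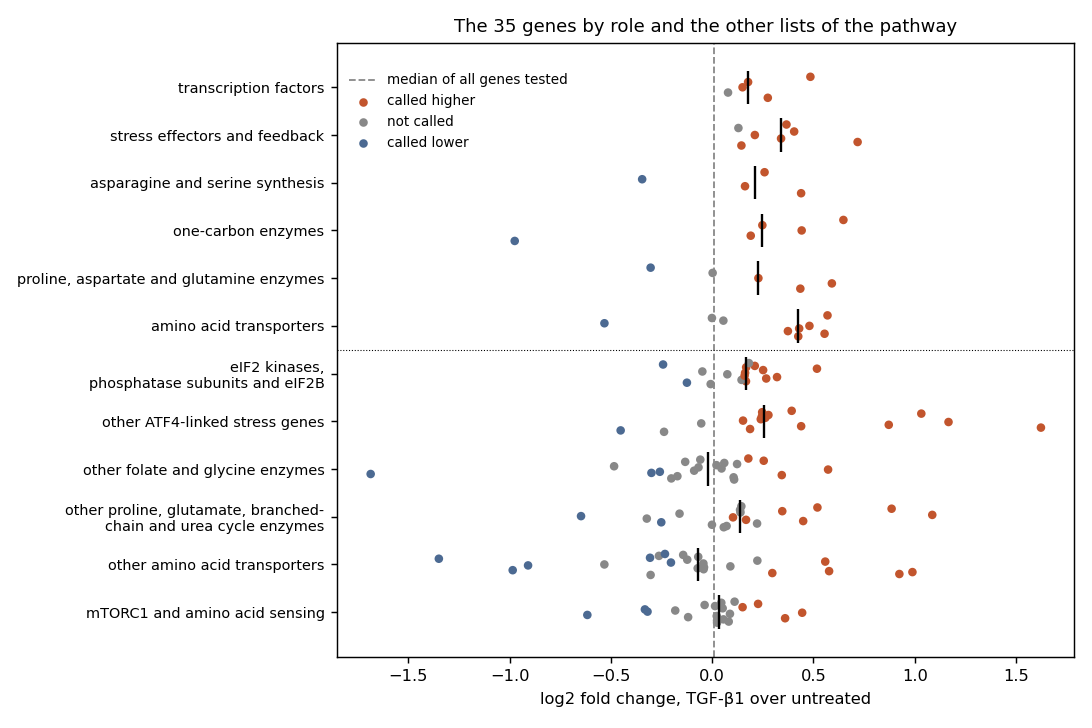
Log2 fold changes (TGF-β1 over untreated, horizontal axis) of the 35 genes in 6 role groups, above the dotted line, and of 6 further lists of the pathway, below it, with 1 point a gene and a black bar at the median. The dashed line marks the median of all genes tested (0.01). The 6 role groups have medians from 0.18 to 0.42, and the further lists have 0.25 (ATF4-linked), 0.16 (eIF2), 0.14 (proline and urea cycle), 0.03 (mTORC1), −0.02 (folate) and −0.07 (transporters).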

How the data were processed

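RNA from 8 cultures, 4 untreated and 4 given TGF-β1, was enriched for poly(A) and read from random-primed libraries, per the labels' protocols. The deposited read counts per gene are whole numbers and not normalized; featureCounts of Subread, HISAT2 and CASAVA appear in the submitters' processing notes, with no version. FPKM values were deposited by the authors in a table of their own and served for levels per gene length and for limma. The processing notes name GRCm38 and the series design mm39. The coordinates in the file overlap the same gene in GENCODE M39 (GRCm39) for 99.94% of 21778 coding genes and are read as GRCm39. Promoter sequences are RefSeq's, in GRCm38.p6.

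Genes were kept by filterByExpr (minimum count 10, minimum total 15), scaled with TMM factors over the totals of the genes kept, and tested across all 13960 genes by edgeR's quasi-likelihood method in R 4.3.3 (edgeR 4.0.16, with limma 3.58.1), group as the only term, two-sided, with Benjamini-Hochberg adjustment over all genes tested. Adjusted p under 0.05 was called. SE is the size of the log2 fold change over the square root of F, and 95% intervals use the moderated degrees of freedom. CPM and ± give mean and SD of 4 libraries unless SE is named. Intervals and p-values measure the spread between these cultures. Single values per library were compared by exact permutation over 70 assignments. Replicate pairs differed by 2.96 to 32.1 times sampling noise (mean chi-square per gene), so none was treated as a duplicate. Pairs with untreated replicate 1 gave 28.2 to 32.1 and all other pairs 2.96 to 11.1. Ribosomal RNA genes were included, and their part in these values was not tested.

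Members and lists were chosen with earlier results of these data known. The text accounts for all 35 genes, and from each further list names up to 3 called genes with the smallest p; a gene this rule would name is not reported here. Simulated data with known changes served to check the fit beforehand. Alternatives were scaling by RLE, by upper quartile or by library totals, looser and stricter filters, DESeq2 1.42.0, limma on log2(FPKM + 1) and log2(FPKM + 0.1), a replicate block and each library left out. Removing ribosomal RNA genes and Lars2 was added after seeing the data.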

Additional observations from a re-analysis of the deposited data

Results flagged for a closer look

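In 72 groups of 4 libraries (35 genes and the ribosomal RNA share, each in both conditions), 3 held a library far from the other 3 of its group by Dixon's criterion. That is about as many as the 1 in 20 that chance gives, but the tally cannot show which flags are chance. Vldlr was at 49.7 CPM in untreated replicate 1 against 58.3 to 59.9 CPM in the other untreated libraries. Slc7a11 was at 17.7 CPM in TGF-β1 replicate 4 against 16.1 to 16.4 CPM in the other treated ones, further from the untreated libraries than they were. Ribosomal RNA took 0.0332% of the counts of untreated replicate 1 against 2.13% to 2.49% in the other untreated libraries. Pairs with untreated replicate 1 also differed by 28.2 to 32.1 times sampling noise, against 2.96 to 3.21 for the other untreated pairs. Without that library 25 of the 35 genes rose and 4 fell, and the call lost was that of Ddit3. Of all 14149 genes tested in that setting, 2155 rose and 2487 fell.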

How the results depend on the processing

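No gene of the 35 reversed a called direction, and 24 of 30 calls held under all 19 alternatives. The number called higher among the 35 ran from 20 (library totals) to 26, and the number called lower was 4 throughout. Over all genes, the number called higher was 1301 with library totals and 1345 with library totals taken without ribosomal RNA genes and Lars2, against 2451. Leaving out a library in turn gave 24 or 25 called higher, and 2155 to 2286 over all genes. The labels number the replicates in both groups but do not say whether a number marks a shared litter. Same-numbered libraries did not deviate together (correlations of −0.03 to 0.04 over genes). Low correlations cannot show that such libraries came from different litters, so the pairing remains unknown. With the replicate block, 26 rose and 4 fell among the 35, and 2416 and 2555 over all genes. A gene with few counts, such as Shmt1 at 89 to 234 counts per library, has the widest error (SE 0.12), and the smallest change called among the 35 was 0.14 on the log2 scale.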
